A study of Mus musculus with 35 samples.

Results

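Natural killer (NK) cells are innate lymphocytes that kill stressed, infected or transformed cells. They release granules holding perforin, which opens the membrane of the target cell, and granzymes, serine proteases that enter through it and trigger cell death. Inhibitory receptors for MHC class I molecules and activating receptors for stress-induced ligands set whether an NK cell kills, and the T-box factors Eomes and T-bet direct its maturation. Cytotoxic T cells share the granule genes, so those genes alone do not identify the cell.

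The genes described here are 10 markers of NK cells and cytotoxic granules: Gzma, Gzmb and Prf1 (granzyme A, granzyme B and perforin), Nkg7 (a granule membrane protein), Ccl5 (a chemokine of cytotoxic lymphocytes), Ncr1, Klrb1c, Klrd1 and Klre1 (surface receptors) and Eomes (the transcription factor). They were taken by symbol from a table of 57186 genes, and all 10 were among the 20606 genes kept by a filter on low counts. The 35 libraries came from whole lung of mice described as 14 days old, and the labels do not say whether that is the age at treatment or at collection. Control mice were RORaf/f, with no Cre named. Knockout (KO) mice were RORaf/fIl7riCre. Their Cre is driven by Il7r, a gene of lymphoid cells, and deletes the floxed Rora, which encodes the nuclear receptor RORα. Both genotypes carried the floxed allele. Mice of each genotype were untreated or had received naphthalene, a compound that its metabolism turns toxic in the club cells of the airway, and carried a day label of 2, 5 or 7. This gave 12 groups, 11 of 3 libraries and 1, the treated KO mice of day 7, of 2. Nothing in the labels says how many animals stand behind a library, so the p-values measure the spread between these libraries.

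The sum of counts ranged from 10.7 to 21.1 M per library (median 16.2 M), and 1 read equalled 0.0487 to 0.0886 CPM, a gene's counts scaled to a common library total. The members were rare in whole lung, with 0 to 274 reads in a library, and their precision was limited by these counts. Scgb1a1, the secretoglobin that marks club cells, ranged over 5199 to 8639 CPM in the 6 untreated libraries with day label 2 and over 376 to 740 CPM in the 6 treated ones, so the labels and the known injury matched. Of 6 markers of lung tissue, all abundant, Scgb1a1 and Cldn18 fell at day 2, and Sftpc, of alveolar type II cells, was at 12880 CPM in treated and 11320 CPM in untreated mice. Rora lay at 32.1 to 53.4 CPM in control and 25.2 to 64.0 CPM in KO libraries. Most lung cells that express Rora are not lymphoid, and the position of the deleted exons against the counted reads is not given, so this does not check the deletion. In untreated control replicate 1 of day 5, P2ry12, a marker of microglia and platelets, stood at 159 CPM and in no other library above 3.92 CPM. The group mean of untreated control mice of day 5 was also high for the microglia markers Gpr34 (27.5 CPM), Siglech (13.5 CPM) and Sall1 (7.79 CPM). In untreated KO mice of day 5 these means were 1.46, 0.473 and 0.939 CPM. Tmem119, another microglia marker, did not differ in this way (113 and 124 CPM). The source of these reads was not tested. The library names carry a letter whose meaning the labels do not give. All treated libraries of day 2 share 1 letter that no untreated library of day 2 carries, and the letters of the treated and untreated libraries of day 5 also differ, so letter and treatment cannot be told apart on those days. All libraries of day 7 share 1 letter.

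Over both genotypes, the mean levels of all 10 genes were lowest at day 2 after naphthalene. This did not hold for each gene in KO mice alone. Klrd1 averaged 2.90 CPM in treated and 2.81 CPM in untreated KO mice of day 2. Of the 12 group means, the lowest was that of the treated control mice of day 2 for 8 genes and that of the treated KO mice of day 2 for the other 2, Ccl5 and Ncr1. The summed level of the 10 genes was 9.84 to 18.3 CPM in the 6 treated libraries of day 2 and 19.1 to 24.6 CPM in the 6 untreated ones, so these ranges did not overlap. It was 19.4 to 38.7 CPM after naphthalene at day 5 against 20.2 to 43.8 CPM untreated, and 24.4 to 37.4 CPM at day 7 against 18.2 to 45.2 CPM untreated. In bulk lung, fewer cells of a type and less RNA per cell cannot be told apart.

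**Figure D1:**
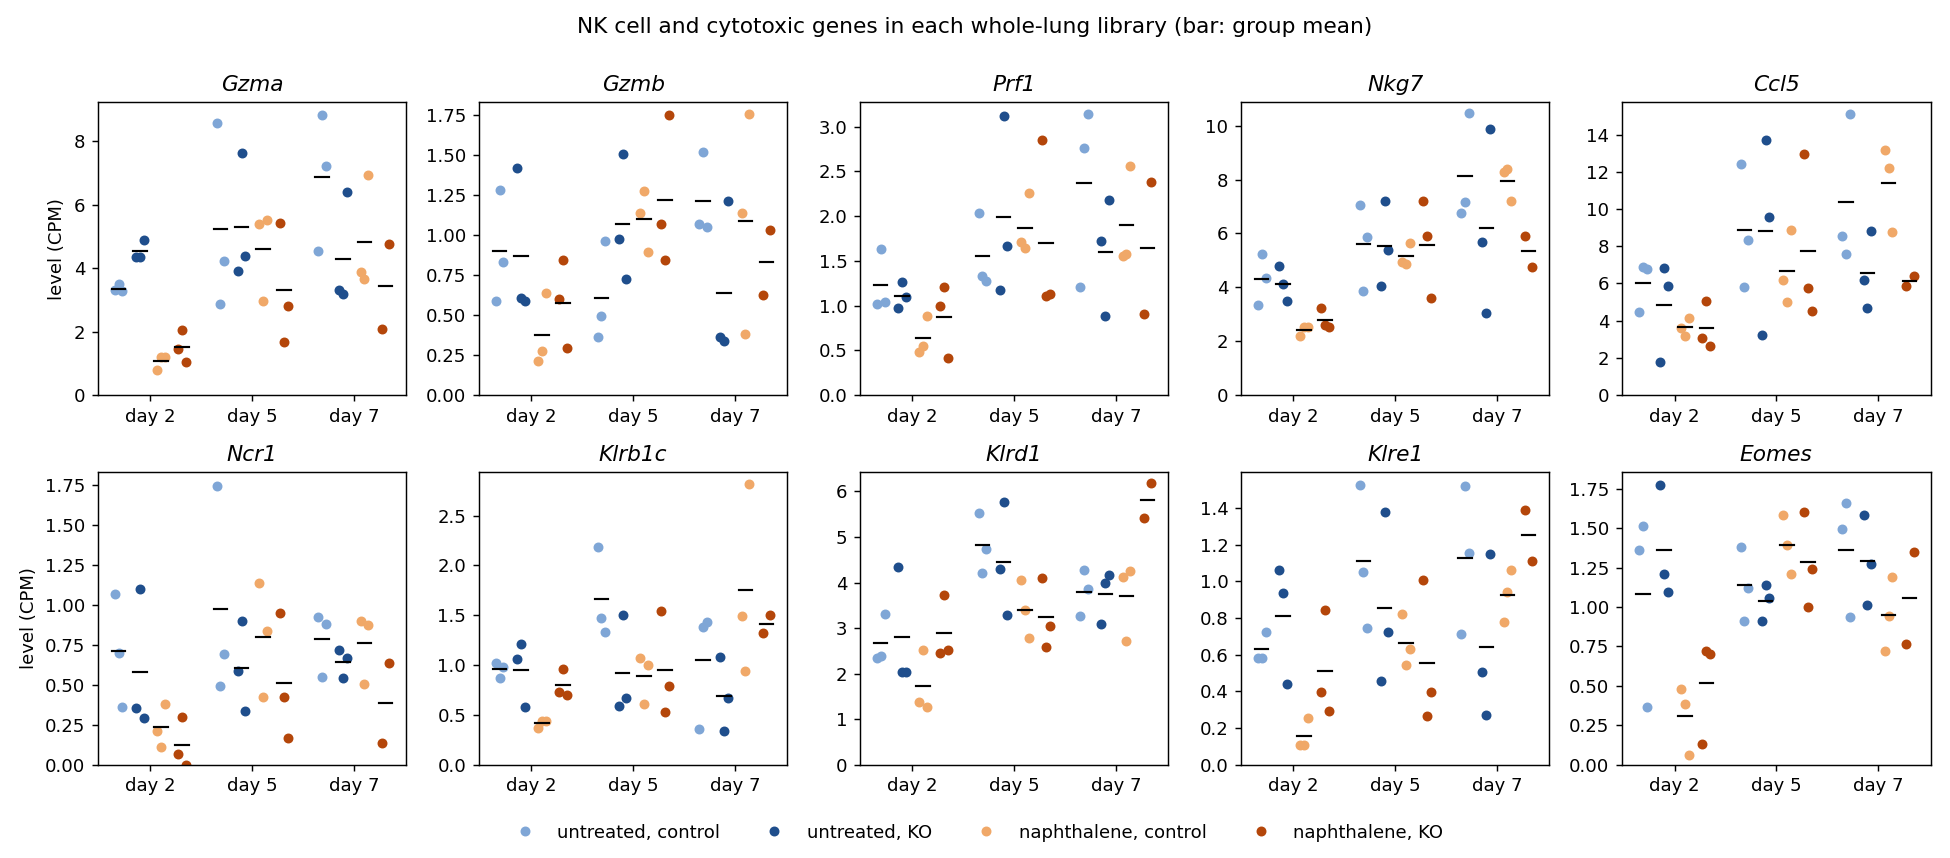
Level of each of the 10 genes in CPM (y axis, from 0) in every library, by day label (x axis) and by treatment and genotype (colour), with a bar at each group mean. For Gzma the 6 treated libraries of day 2 lie between 0.798 and 2.05 CPM, below the 6 untreated ones of that day at 3.27 to 4.89 CPM.

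Naphthalene was compared with no treatment at each day label by edgeR's quasi-likelihood test, with both genotypes weighted equally. The p-values were adjusted after Benjamini and Hochberg over the 20606 genes tested. A gene was called at an adjusted p under 0.05. At day 2, 5 of the 10 genes fell and none rose: Gzma, Eomes, Ncr1, Klre1 and Nkg7. Over all genes tested, 4.3% were called lower in that comparison and 9.9% in either direction. The estimate was below 0 for all 10, with a median log2 change of -0.82 against -0.04 over all genes tested. For 2 of the 10, Gzma and Nkg7, the treated libraries lay below the untreated ones with no overlap, which held for 1.47% of all genes. The 10 genes were chosen with earlier results of these data known, so their shares beside all genes are given as a description.

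Among the granule genes, Gzma (ENSMUSG00000023132), a tryptase of cytotoxic granules, gave the clearest difference. Untreated control mice of day 2 had 3.31, 3.49 and 3.27 CPM and untreated KO mice 4.34, 4.35 and 4.89 CPM. Treated control mice had 0.798, 1.21 and 1.21 CPM and treated KO mice 1.46, 2.05 and 1.05 CPM. Every treated library lay below every untreated library of that day, and the mean fell from 3.94 to 1.30 CPM. The log2 change was -1.61 ± 0.31 (SE; adjusted p = 0.000591, edgeR), and it was called in all 12 fits that left out 1 library.

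The order of the 12 Gzma group means ran from the treated groups of day 2, at 1.07 ± 0.24 CPM (SD, n = 3) in control and 1.52 ± 0.50 CPM (SD, n = 3) in KO mice, to untreated control mice of day 7 at 6.86 ± 2.16 CPM (SD, n = 3). Between these, the next lowest were treated KO mice of day 5 at 3.30 ± 1.91 CPM (SD, n = 3), untreated control mice of day 2 at 3.36 ± 0.12 CPM (SD, n = 3) and treated KO mice of day 7 at 3.42 ± 1.89 CPM (SD, n = 2). Neighbours in the order of these 10 higher means differed by less than the larger of their SDs, and so did the 2 lowest means from each other.

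Nkg7 (ENSMUSG00000004612), a protein of the granule membrane needed for full degranulation, was the other gene without overlap. Its untreated values at day 2 were 3.36, 5.24 and 4.36 CPM in control and 4.78, 4.13 and 3.50 CPM in KO mice. After naphthalene they were 2.18, 2.53 and 2.54 CPM in control and 3.25, 2.59 and 2.52 CPM in KO mice. The gap between the highest treated and the lowest untreated library was small, from 3.25 to 3.36 CPM. The log2 change was -0.70 ± 0.23 (SE; adjusted p = 0.0427, edgeR), and the call held in 3 of the 12 fits that left out 1 library. It held without treated KO replicate 1, untreated control replicate 1 or untreated KO replicate 3, and without any 1 of the other 9 the adjusted p lay between 0.0649 and 0.109.

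The other granule genes and the chemokine gave values in the same direction that did not pass the test. Prf1, the pore-forming protein, was at 0.479, 0.549 and 0.888 CPM in treated control mice against 1.02, 1.63 and 1.04 CPM untreated. In KO mice it was at 0.995, 1.20 and 0.410 CPM treated against 0.974, 1.27 and 1.10 CPM untreated, so the control libraries were separated and the KO libraries overlapped. Its log2 change over both genotypes was -0.66 ± 0.35 (SE; adjusted p = 0.259, edgeR). Gzmb, the granzyme that activates caspases, gave -0.91 ± 0.40 (SE; adjusted p = 0.164), on 4 to 31 reads per library over the series. Ccl5 gave -0.59 ± 0.32 (SE; adjusted p = 0.271). In untreated KO replicate 1 of day 2 Ccl5 was at 1.77 CPM, the lowest of all 35 libraries, while the other untreated libraries of day 2 held 4.48 to 6.86 CPM.

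Of the receptors, Ncr1 and Klre1 fell. Ncr1 (ENSMUSG00000062524) encodes NKp46, an activating receptor that in mice marks NK cells and some other innate lymphoid cells. It was at 1.07, 0.698 and 0.363 CPM in untreated control and 0.354, 1.10 and 0.292 CPM in untreated KO mice of day 2. After naphthalene it was at 0.213, 0.110 and 0.381 CPM in control mice, and at 0.0663 and 0.301 CPM in 2 of the KO libraries. The third, KO replicate 3, held 0 reads of Ncr1, and 3 reads would have been 0.176 CPM there. The groups overlapped, and the log2 change was -1.93 ± 0.54 (SE; adjusted p = 0.0177, edgeR). The call held in 7 of 12 fits that left out 1 library and was lost without treated KO replicate 1 or 3, treated control replicate 2, untreated control replicate 1 or untreated KO replicate 2 (adjusted p from 0.0504 to 0.143).

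Klre1 (ENSMUSG00000050241), a lectin-like receptor that pairs with other members of its family, had 0.584, 0.582 and 0.726 CPM in untreated control and 1.06, 0.936 and 0.438 CPM in untreated KO mice of day 2. After naphthalene it had 0.106, 0.110 and 0.254 CPM in control and 0.398, 0.842 and 0.293 CPM in KO mice. The control libraries were separated and the KO libraries overlapped. The log2 change over both genotypes was -1.32 ± 0.41 (SE; adjusted p = 0.034, edgeR). The call held in 5 of 12 fits that left out 1 library and was lost without treated control replicate 1 or 2, treated KO replicate 1 or 3, untreated KO replicate 1 or 2 or untreated control replicate 3 (adjusted p from 0.0587 to 0.1).

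Klrb1c, which encodes the NK1.1 antigen, and Klrd1, the CD94 chain shared by the NKG2 receptors, were not called. Klrb1c went from 0.956 to 0.608 CPM in the mean (log2 change -0.73 ± 0.35, SE; adjusted p = 0.213, edgeR). Klrd1 gave the smallest estimate of the 10, -0.28 ± 0.22 (SE; adjusted p = 0.493), with a 95% interval from -0.73 to 0.17. Klrd1 and Klre1 are neighbours with 0 protein-coding genes between them on chromosome 6, and Klrb1c lies 19 protein-coding genes from Klre1 (gene order of GRCm38.p6 in RefSeq).

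Eomes (ENSMUSG00000032446), the T-box factor of mature NK cells that also acts in memory CD8 T cells, had 1.36, 1.51 and 0.363 CPM in untreated control and 1.77, 1.21 and 1.10 CPM in untreated KO mice of day 2. Treated control mice had 0.479, 0.385 and 0.0634 CPM and treated KO mice 0.133, 0.722 and 0.703 CPM. Only untreated control replicate 3, at 0.363 CPM, lay within the treated range. The log2 change was -1.54 ± 0.35 (SE; adjusted p = 0.00321, edgeR), called in all 12 fits that left out 1 library.

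The start regions of these genes were read to show short motifs of factors known to act in NK cells. RefSeq entries (GRCm38.p6) covering the 250 bases before a start matched 8 of the 10 genes, all but Ccl5 and Klrd1, with 10 start entries, since Ncr1 and Klre1 had 2 each. Searched on both strands, the RUNX motif TGTGGTT was present in 5 of these 10 entries, those of Gzma and Gzmb, both of Ncr1 at the same site and 1 of Klre1, and in 4.4% of all 32851 promoter entries. The ETS motif AGGAAGT was present for Prf1, in 2 copies, and in 7.69% of all entries, and the T-box motif GGTGTGA for Nkg7 and in 3.33%. The matches of Klre1 and Nkg7 lay in an exon of another GENCODE transcript of the same gene, and their windows are not printed. The 3 motifs do not overlap each other in the windows shown. A match is a description of the letters and not a site of binding. The windows below carry the RUNX match of the granzymes and of Ncr1 and the ETS match of Prf1 nearer to the start, with the match in capitals. They are written 5′ to 3′ on the strand of the gene, so that AACCACA is TGTGGTT read on the opposite strand.
Gzma, chr13:113100986-113101072, minus strand: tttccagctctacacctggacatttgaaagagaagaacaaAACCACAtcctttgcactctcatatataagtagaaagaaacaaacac
Gzmb, chr14:56262335-56262408, minus strand: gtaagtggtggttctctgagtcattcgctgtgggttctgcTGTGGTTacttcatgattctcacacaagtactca
Ncr1, chr7:4337499-4337585, plus strand: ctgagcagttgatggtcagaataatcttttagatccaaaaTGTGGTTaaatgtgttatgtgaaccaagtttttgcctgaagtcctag
Prf1, chr10:61297687-61297773, plus strand: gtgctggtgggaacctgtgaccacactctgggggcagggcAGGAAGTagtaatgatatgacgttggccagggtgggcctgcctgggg
The RUNX match of Gzma began 51 bases and that of Gzmb 34 bases before the start, and the match of Ncr1 176 bases before it. Gzma and Ncr1 fell at day 2, and Gzmb, whose estimate went in the same direction, did not pass the test. A missing call does not show a different effect, and whether the match goes with the fall was not tested.

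By genotype, day 2 called fewer members. In control mice Gzma (log2 change -1.65 ± 0.45, SE; adjusted p = 0.0291, edgeR) and Eomes (-1.74 ± 0.51, SE; adjusted p = 0.047) fell, 2 of 10 beside 1.18% of all genes. Treated libraries lay below untreated ones with no overlap for 6 of the 10, beside 9.76% of all genes. For 0 of the 10 they lay above with no overlap, beside 10.7% of all genes. The median change was -1.23. In KO mice 9 of the 10 estimates were below 0 and 1 was above it, at 0.07. Gzma alone fell there (-1.57 ± 0.44, SE, adjusted p = 0.045, edgeR), beside 0.747% of all genes. In KO mice 3 of the 10 lay lower with no overlap, beside 8.41% of all genes, and 0 lay higher with no overlap, beside 9.92%. The median change there was -0.56. Each of these calls rests on few libraries: leaving out 1 library gave 0 or 1 called member in control mice and 0 to 2 in KO mice.

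The difference between the genotypes in the day 2 effect was tested as an interaction. It called 0 of the 10 genes and 0% of all genes, DESeq2 called 0 of the 10 too, and 0 of the 10 had an unadjusted p under 0.05. The estimate was above 0, a smaller fall in KO mice, for 9 of the 10, with a median of 0.49. For Klre1 it was 1.34 ± 0.82 (SE; 95% interval from -0.33 to 3.01; adjusted p = 1, edgeR), and for Gzma 0.08 ± 0.61 (SE; 95% interval from -1.17 to 1.32). Differences within these intervals remain compatible with these libraries, so the absence of a call does not show equal effects. At days 5 and 7 the interaction called 0 of the 10 genes by either tool and 0 had an unadjusted p under 0.05.

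At days 5 and 7 no member was called. At day 5 the treated and untreated means of Gzma were 3.96 and 5.27 CPM and those of Eomes 1.34 and 1.09 CPM. The log2 changes of the 10 genes ran from -0.68 to 0.50 with a median of -0.28, and 1 of the 10, Klrd1 (-0.48 ± 0.21, SE; adjusted p = 0.139, edgeR), had an unadjusted p under 0.05. In that comparison 7.16% of all genes were called, and DESeq2 called 0 of the 10 genes. Without untreated control replicate 1 of day 5, the library with P2ry12, 0 were called, and without treated KO replicate 1 of day 5 Klre1 was (log2 change -1.03, adjusted p = 0.0482).

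At day 7 the changes ran from -0.43 to 0.87 with a median of -0.06, 5 of 10 above 0 and 5 below, while 0.374% of all genes were called and DESeq2 called 0 of the 10. Klrb1c was the 1 gene with an unadjusted p under 0.05 there. It had 1.50, 0.945 and 2.82 CPM in treated control and 1.32 and 1.51 CPM in treated KO mice, against 0.355, 1.38 and 1.43 CPM and 1.08, 0.338 and 0.666 CPM untreated (log2 change 0.87 ± 0.35, SE; adjusted p = 0.678, edgeR). By genotype, 0 members were called at day 5, beside 2.39% of all genes in control and 1.32% in KO mice, or at day 7, beside 0.0388% and 0.0728%.

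**Figure D2:**
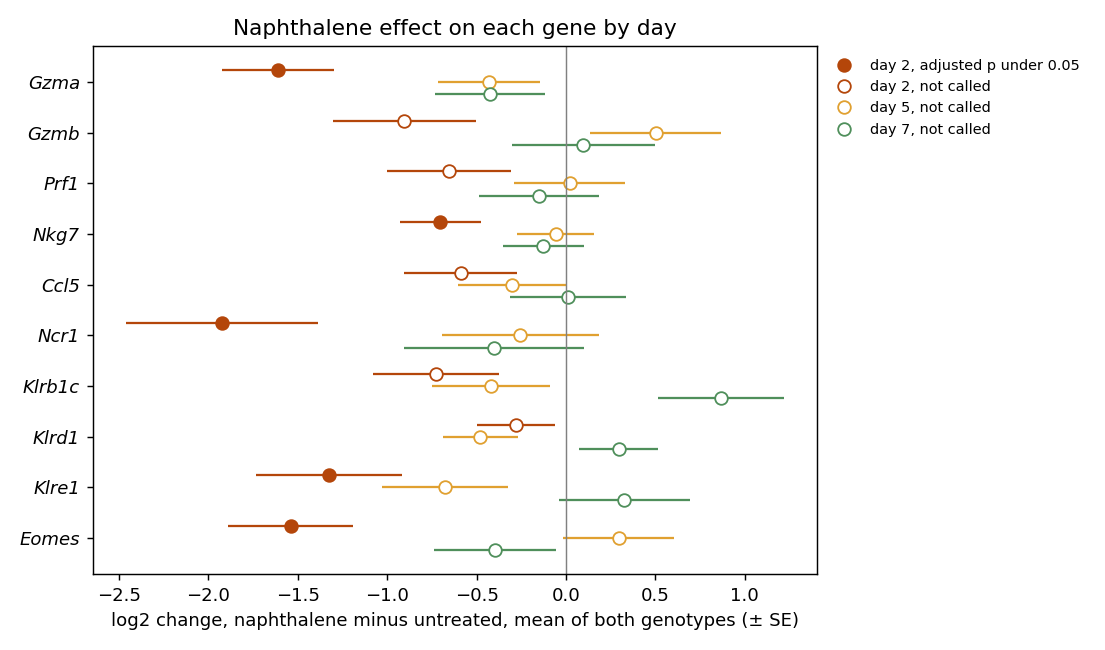
Log2 change between treated and untreated libraries, mean of both genotypes (x axis, with its SE as a bar), for each gene (y axis) at days 2, 5 and 7, filled where the adjusted p was under 0.05. The 5 filled points are all at day 2, from -0.70 for Nkg7 to -1.93 for Ncr1.

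Whether the effect of naphthalene itself changed between days was tested directly. From day 2 to day 5 it moved upward for 9 of the 10 genes, with a median of 0.66 on the log2 scale, and 0 were called, beside 0.451% of all genes called higher. The gene nearest to the threshold was Eomes (1.83 ± 0.47, SE; adjusted p = 0.0567, edgeR), 5 of the 10 had an unadjusted p under 0.05, and DESeq2 called 1. From day 2 to day 7 it moved upward for all 10, with a median of 1.07, and 0 were called, beside 0.461% called higher. Again 5 of the 10 had an unadjusted p under 0.05, the smallest adjusted p was 0.144, for Klrb1c, and DESeq2 called 0. Both of these comparisons share the libraries of day 2 with each other and with the effect at day 2.

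Among untreated mice, levels were higher at day label 7 than at 2 for 9 of the 10 genes, with a median log2 difference of 0.37. Nkg7 rose, from 4.23 to 7.16 CPM in the mean (0.75 ± 0.22, SE; adjusted p = 0.0191, edgeR), 1 of 10 beside 6.06% of all genes called higher. Its values at day 7 were 6.75, 7.18 and 10.5 CPM in control and 5.69, 3.04 and 9.86 CPM in KO mice, so 1 library, KO replicate 2, lay below the whole untreated range of day 2. Leaving out untreated control replicate 1 of day 2, or untreated KO replicate 3 or untreated control replicate 3 of day 7, ended the call (adjusted p = 0.0589, 0.143 and 0.0661). Of the 15 T cell markers, 1 rose in the same comparison, Cd3d. From day 2 to day 5 in untreated mice 0 members were called by edgeR, 1 by DESeq2 and 2 at an unadjusted p under 0.05, beside 0.476% of all genes called. The letter in the library name differs between all 3 day labels of the untreated mice, so day and letter cannot be told apart.

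The KO genotype gave no call. KO and control mice were compared in each of the 6 combinations of treatment and day and over their mean, and 0 of the 10 genes and 0% of all genes were called in each of these 7 comparisons by edgeR, and 0 of the 10 by DESeq2. Over the mean of the 6 combinations the estimates ran from -0.61 to 0.20. The 1 gene with an unadjusted p under 0.05 was Ncr1 (-0.61 ± 0.29, SE; 95% interval from -1.20 to -0.02; adjusted p = 0.324, edgeR), with group-mean averages of 0.476 CPM in KO and 0.711 CPM in control mice. For Gzma the interval was -0.47 to 0.24. In untreated mice of day 7 all 10 estimates were below 0, with a median of -0.60 and 0 at an unadjusted p under 0.05. In treated mice of day 2, 8 of the 10 were above 0, with a median of 0.58, and Klrd1 and Klre1 had an unadjusted p under 0.05. For 2 of the 10, Klrb1c and Klre1, the KO libraries lay above the control ones with no overlap. This held for 10.5% of all genes, while 13.5% of all genes and 0 of the 10 lay lower with no overlap.

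Other genes of the NK cell program were read from lists. Over all genes tested at day 2, 4.3% were called lower and 5.6% higher. Of 25 other NK receptors and adaptors, 20 were tested. At day 2, 3 fell and 1 rose, with a median of -0.61. The gene with the smallest p was Klrk1, the activating receptor NKG2D, at 0.589 CPM in treated and 1.60 CPM in untreated mice (-1.46 ± 0.37, SE; adjusted p = 0.00825, edgeR). Klrc1 (-1.68 ± 0.46), an inhibitory partner of CD94, and Slamf7 (-0.71 ± 0.22) were the other genes that fell, and are named after their values were seen. Il18rap, a chain of the interleukin-18 receptor that neutrophils and T cells also express, rose (0.79 ± 0.24, SE; adjusted p = 0.0337, edgeR). The 2 most abundant, Il2rb (-0.23) and Sh2d1b1 (0.09), were not called. The summed level of the 25 genes overlapped, at 37.2 to 43.6 CPM in treated and 33.98 to 54.4 CPM in untreated libraries. Klrk1 was called in all 12 fits that left out 1 library, Klrc1 in 9, and Slamf7 and Il18rap in 5 each. With only the groups compared in the fit, Slamf7 (adjusted p = 0.0808) and Il18rap (0.0637) were not called, nor was Slamf7 without the filter on low counts (0.0961).

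Of 16 other cytotoxic effectors, 11 were tested and 1 fell, Tnfsf10, the death ligand TRAIL (144.7 to 92.2 CPM; -0.68 ± 0.16, SE; adjusted p = 0.0032, edgeR), which many lung cells express. The 1 call stands beside 4.3% of all genes called lower, and the list's median was 0.08. Its most abundant members, the granule proteoglycan gene Srgn (0.01) and the granzyme-activating protease gene Ctsc (0.13), and Rab27a (0.40), which docks granules, were not called. Ifng, Gzmc, Gzmk, Fasl and Xcl1 were too low to be tested.

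Of 14 transcription factors and trafficking genes, 3 fell, beside 4.3% of all genes called lower, with a median of -0.27. S1pr5, the receptor by which NK cells leave tissues for blood, went from 3.42 to 1.65 CPM (-1.08 ± 0.25, SE; adjusted p = 0.00375, edgeR). Prdm1 (-0.59) and Ikzf3 (-0.62), which B cells also use, were the other genes that fell and are named after their values were seen. S1pr5 was called in all 12 fits that left out 1 library, Ikzf3 in 7 and Prdm1 in 5. With only the groups compared in the fit, Prdm1 was not called (adjusted p = 0.0697). Tbx21, which encodes T-bet and is also named after its value was seen, gave -1.27 ± 0.44 (SE; adjusted p = 0.06). The abundant Ets1 (-0.12) and Zeb2 (-0.13) were not called.

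Signals that act on NK cells gave few calls, beside 4.3% of all genes called lower. Of 8 cytokine and chemokine genes tested of 11, Cxcl10, a ligand of Cxcr3, fell (-1.44 ± 0.43, SE; adjusted p = 0.0284, edgeR), while Il18 (0.26), Cx3cl1 (-0.26) and Il15ra (-0.14) were not called. Cxcl10 was called in 6 of 12 fits that left out 1 library, and its estimate moved most without untreated KO replicate 2 (-0.81, adjusted p = 0.323). With only the groups compared in the fit it was not called (adjusted p = 0.0729). Of 11 genes tested of 13 for ligands of NK receptors, H60c, a ligand of NKG2D, fell (-1.20 ± 0.35, SE; adjusted p = 0.0255) and was called in 8 of 12 such fits, and the MHC class I genes B2m (-0.48; adjusted p = 0.0591) and H2-D1 (-0.15) and the nectin Nectin2 (0.08) were not called.

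Markers of other cells moved at day 2 in several directions, beside 4.3% of all genes called lower and 5.6% called higher. Of 15 T cell markers, among them Cd3e (8.08 CPM treated, 7.59 CPM untreated), Cd8a (5.79 and 5.52 CPM) and Trac (9.98 and 10.9 CPM), 0 were called by edgeR and 0 had an unadjusted p under 0.05. Their median was -0.09 and their sum 82.8 to 106.8 CPM in treated and 73.8 to 129.9 CPM in untreated libraries. Of 7 B cell markers 5 fell, with a median of -0.76 and sums of 197.1 to 374.0 CPM in treated and 428.2 to 625.8 CPM in untreated libraries.

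Of 6 neutrophil markers 3 rose, with sums of 117.8 to 495.7 CPM in treated and 90.6 to 324.4 CPM in untreated libraries. Of 6 macrophage markers 3 rose, with sums of 323.1 to 507.8 CPM in treated and 110.2 to 162.7 CPM in untreated libraries. Of 6 red cell markers 3 fell, with sums of 1707 to 3030 CPM in treated and 2963 to 5128 CPM in untreated libraries, and haemoglobin genes took 0.175% to 0.309% of counts in treated and 0.302% to 0.518% in untreated libraries. Of 5 microglia markers 0 were called by edgeR and 0 had an unadjusted p under 0.05. In each of these lists 0 markers were without reads in the treated or the untreated group. Mitochondrial genes took 1.63% to 2.57% of counts in treated and 0.752% to 1.53% in untreated libraries. The part that the other cells, the blood content and the mitochondrial share have in the fall of the members was not tested.

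**Figure D3:**
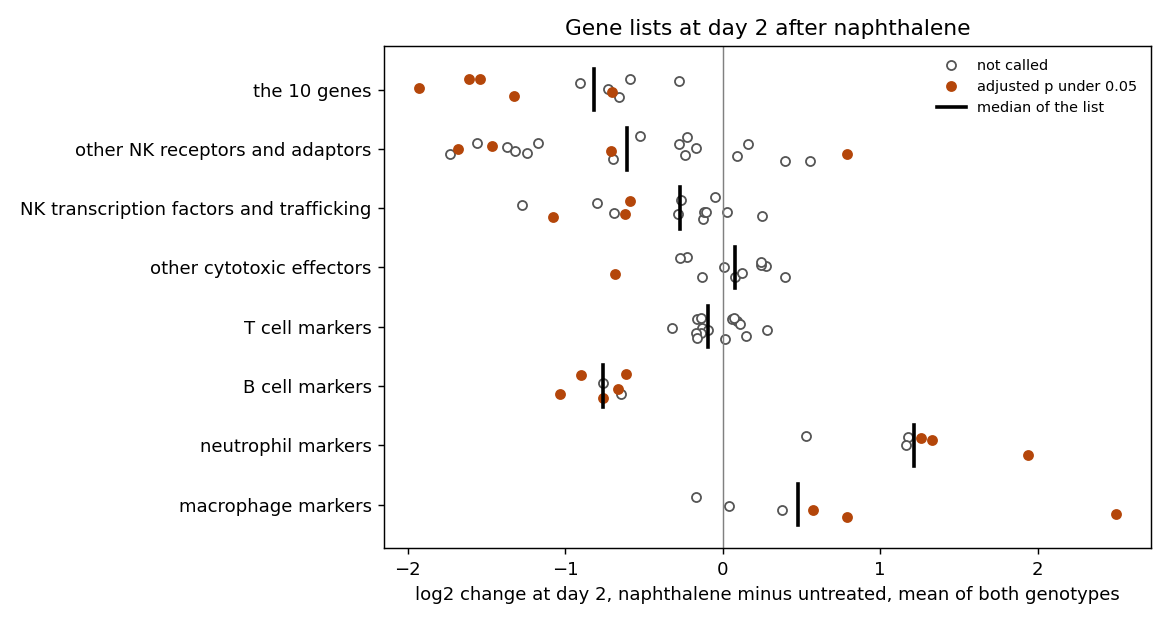
Log2 change at day 2, mean of both genotypes (x axis), for each tested gene of 8 lists (y axis), filled where the adjusted p was under 0.05, with a bar at the median of each list. The 10 genes lie wholly below 0 (median -0.82), the 15 T cell markers on both sides of it (median -0.09), and the 7 B cell markers below it (median -0.76).

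The 10 genes also varied together between libraries. Over all 35 libraries, Pearson's r of log2 CPM ran from 0.27 (Gzmb with Ccl5) to 0.85 (Gzma with Prf1) over the 45 pairs, with a median of 0.57. After subtracting group means the median was 0.43 and 40 of the 45 pairs stayed above 0, so the shared variation was not only that between groups. Gzma and Prf1 gave 0.82 after this step and Klrb1c and Klre1 0.71. Eomes stood apart, with values between -0.06 and 0.25 towards the other 9. The points share libraries and depth, and these values are given as a description.

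**Figure D4:**
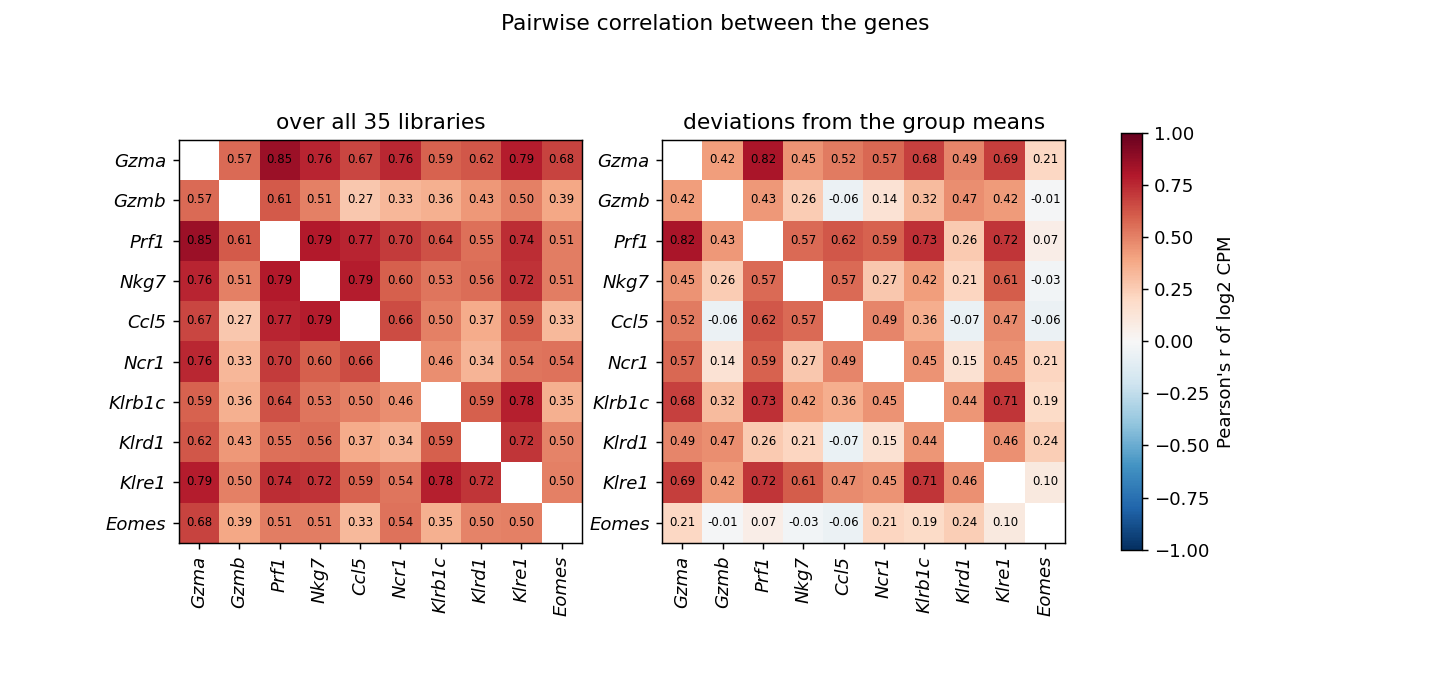
Pearson's r of log2 CPM between each pair of the 10 genes, over all 35 libraries (left) and for the deviations from the group means (right), on a colour scale from -1 to 1. Gzma and Prf1 give the highest value in both panels, 0.85 and 0.82, and the row of Eomes is near 0 in the right panel.

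Ranked by the mean of the 10 standardised log2 levels, 5 of the 6 treated libraries of day 2 were the 5 lowest of all 35. The sixth, KO replicate 2, ranked 9. The highest 2 were untreated KO replicate 2 of day 5 and treated control replicate 3 of day 7, so high values occurred in both treatments and both genotypes.

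The genes most like the 10 in their pattern were named by their correlation with that mean over the 35 libraries, among 13950 other genes whose mean reached 1 CPM. The 10 highest were H2-Q7 (0.90), B2m (0.89), H2-Q6 (0.88), H2-Q5 (0.88), H2-K1 (0.87), H2-Eb1 (0.86), Ifi27l2a (0.85), Gkn3 (0.83), H2-Ab1 (0.83) and Ces2e (0.82). Of these, 5 belong to MHC class I or its light chain and 2 to MHC class II, which present peptides to T cells, and Ifi27l2a is induced by interferon. H2-Q5, H2-Q6 and H2-Q7 are near-identical copies among which reads can be split, so their separate values are uncertain. After subtracting group means the values of the 10 were 0.55 to 0.84. For comparison, the median r with the same mean was 0.55 over the 20 other NK receptors and adaptors. It was 0.67 over the 6 red cell markers and 0.35 over the 15 T cell markers. Over the 7 B cell markers it was 0.12, and over the 6 neutrophil markers -0.58. After subtracting group means these medians were 0.271, 0.192, 0.225, 0.505 and -0.242 in the same order. At day 2 H2-Q5 (-1.20), H2-Eb1 (-0.81), H2-Ab1 (-0.85), Ifi27l2a (-1.50), Gkn3 (-1.97) and Ces2e (-1.21) fell, and H2-Q7 (-1.08), H2-Q6 (-1.32), B2m (-0.48) and H2-K1 (-0.39) did not pass the test.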

How the data were processed

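Whole-lung RNA was made into mRNA libraries, per the labels' protocols. The authors deposited 1 table of raw counts per gene and library; the submitters' processing notes name the build GRCm39 and DESeq2 without its role, and which aligner and counter were used is not given in the sources used here. From these counts, 1 model of 12 group means was fitted to all 35 libraries with edgeR 4.0.16 (quasi-likelihood, robust, TMM scaling, filterByExpr) in R 4.3.3, and 23 contrasts were tested, each adjusted by Benjamini-Hochberg over 20606 genes. CPM values use the TMM-scaled library sizes, and log2 CPM for correlations a prior count of 2. A floor for a count of 0 is 3 reads. Intervals are at 95%, and intervals and floors cover counting error and the modelled spread only. The script was tested on simulated data. DESeq2 1.42.0 and other settings served as alternatives.

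Replicate numbers did not pair the libraries: same-numbered deviations correlated between -0.31 and 0.40, and in 0 of the 10 comparisons with 3 pairs was every value over 0.1. Within groups, all pairs of libraries differed beyond sampling noise (smallest chi-square per gene 8.80). The members and gene lists were chosen with earlier results of these data known. Except for 1 gene that is not reported here, named genes were the 10 members and, for each list of other NK genes, the rising and the falling gene of lowest p and the 2 genes of highest mean CPM; the most similar genes were the 10 with the highest correlation, leaving out gene models, pseudogenes and receptor segments. Marker lists also covered innate lymphoid cells, mast cells, thymocytes, microglia and lung tissue. Promoter sequences are RefSeq's on GRCm38.p6, and no coordinates of the deposited build are given.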

Additional observations from a re-analysis of the deposited data

How the results depend on the processing

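All 5 members called lower at day 2 over both genotypes were called under DESeq2, under DESeq2's size factors in edgeR, without the filter on low counts, with the replicate block and with only the groups compared. Leaving out 1 library left 2 to 5 called: 2 without treated control replicate 2, treated KO replicate 3 or untreated KO replicate 2 of day 2, and 3 without treated control replicate 1, treated KO replicate 1, untreated KO replicate 1 or untreated control replicate 3. In control mice of day 2 the 2 calls became 1 with the replicate block, 1 with only the groups compared and 0 to 1 without 1 library; in KO mice the 1 call became 0 with the replicate block and 0 to 2 without 1 library. The numbers do not pair the libraries, so a call lost with the block is not read as a weaker effect, and the block changed no other count of members. Counts of members also moved for untreated mice from day 2 to day 5 (0; 1 under DESeq2, 1 without the filter, 0 to 1 without 1 library), from day 2 to day 7 (1; 2 without the filter, 0 with only the groups compared, 0 to 2 without 1 library), for the change of the effect to day 5 (0; 1 under DESeq2, 2 without the filter, 0 to 1 without 1 library) and to day 7 (0; 1 without the filter), and at day 5 (0; 0 to 1 without 1 library). Without 1 library, estimates near 0 changed sign: Klrd1 in KO mice of day 2 from -0.15 to 0.51; at day 5 Prf1 from -0.26 to 0.26, Nkg7 from -0.153 to 0.059 and Ncr1 from -0.617 to 0.085 (above 0 only without untreated control replicate 1); at day 7 Prf1 from -0.58 to 0.13, Gzmb from -0.16 to 0.53, Ccl5 from -0.085 to 0.186 and Nkg7 from -0.29 to 0.12. Of the 230 single-genotype estimates at days 5 and 7 with 1 library left out, 38 changed sign and 0 were called. The cause was not tested.

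Counts over all genes moved by more than 1.5 times in several comparisons. Without the filter they were 1056 for KO mice at day 2 (565 as reported), 2118 and 635 for control and KO mice at day 5 (492 and 272), 45 and 161 at day 7 (8 and 15), 2696 and 209 over both genotypes at days 5 and 7 (1476 and 77), 516 for untreated mice from day 2 to day 5 (98), 695 and 603 for the changes of the effect (138 and 209), and between 12 and 503 in the comparisons that called 0. DESeq2 gave 1298 and 435 at day 5, 15 and 29 at day 7, 180 for untreated mice to day 5, 376 and 340 for the changes of the effect, and 24 for KO against control in untreated mice of day 5. With only the groups compared they were 261 for KO mice at day 2, 26 and 24 at day 5, 3 for control mice at day 7, 605 and 44 over both genotypes, 0 and 1430 for untreated mice to days 5 and 7 (98 and 2835), 89 for the change to day 5, and 2 and 86 for KO against control in untreated mice of day 5 and treated mice of day 2. The replicate block gave 5 for control mice at day 7, and the letter as a block 2 in untreated mice of day 5. Leaving out 1 library gave 468 to 784 for control mice (774) and 216 to 1099 for KO mice at day 2, 23 to 3544 for control mice and 68 to 901 for KO mice at day 5, 556 to 4073 over both genotypes at day 5, 1296 to 2577 at day 2 (2040) and 33 to 72 at day 7, 3 to 5 and 4 to 15 for control and KO mice at day 7, 21 to 441 and 1720 to 3309 for untreated mice to days 5 and 7, 67 to 553 and 107 to 334 for the changes of the effect, and, for KO against control, 0 to 197 in untreated and 0 to 3 in treated mice of day 5. Using only the groups compared was not run for the mean KO effect, which uses all groups. Depth limits Ncr1, Klre1, Gzmb, Klrb1c and Eomes, with medians of 8 to 19 reads in a library.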

Other observations

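Other immune genes, named after their values were seen, gave day 2 values beside those of the 10 genes. Rag1, the recombinase of developing lymphocytes and the 1 of 5 thymocyte markers that could be tested, fell from 1.13 to 0.133 CPM in the mean (log2 change -3.04 ± 0.66, SE; adjusted p = 0.00207, edgeR), with 0.0532, 0 and 0.254 CPM in treated control and 0.133, 0.361 and 0 CPM in treated KO mice, and it was called in all 12 fits that left out 1 library. Untreated libraries of day 2 held 0.365 to 1.69 CPM, so only untreated KO replicate 3 came near the treated range. Mcpt8, a protease of basophils, fell from 0.651 to 0.0804 CPM (-2.92 ± 0.73, SE; adjusted p = 0.0079, edgeR), with 0 reads in 3 of the 6 treated libraries. The tested mast cell proteases Cma1 (-0.96), Mcpt4 (-0.97), Tpsb2 (-0.94) and Cpa3 (-0.08) were not called. Of 7 tested markers of ILC2 cells, 1 rose, beside 5.6% of all genes called higher. It was Areg (amphiregulin, which epithelium also makes, 2.66 to 41.0 CPM). Gata3 (-0.21), Il1rl1 (-0.34) and Il7r (0.21) were not called. Of 3 tested markers of ILC1 and tissue-resident lymphocytes 0 were called by edgeR, and 0 had an unadjusted p under 0.05.

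At day 5, when 0 of the 10 genes were called, 7 of 7 B cell markers (median -1.10) and 1 of 15 T cell markers were called lower by edgeR, beside 2.82% of all genes. At day 7, 0 of the 7 B cell markers were called and 6 had an unadjusted p under 0.05. Cxcl9, a ligand of Cxcr3 induced by interferon-γ, rose at day 7 (0.317 to 2.65 CPM; log2 change 2.63 ± 0.57, SE; adjusted p = 0.0248, edgeR). Its treated values were 0.479, 0.315 and 1.56 CPM in control and 0.557 and 8.49 CPM in KO mice. Without KO replicate 2, which held the highest of these, the change was 1.13 (adjusted p = 1), it was called in 3 of 11 fits that left out 1 library, and with only the groups compared it was not called (adjusted p = 0.22).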
